A study of Mus musculus with 15 samples.

Results

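The tectorial membrane glycoprotein genes examined here were Tecta, Tectb, Ceacam16, Otog, Otogl and Otoa, taken by gene symbol from the deposited table, where all 6 were found among 18536 genes. The study followed the mouse auditory nerve over postnatal development by bulk RNA sequencing. Groups were postnatal day (P) 3, P7, P14, P21 and adult, with 3 libraries each and 15 in all, every library made from both cochleae of 1 mouse. The adult libraries carry the name CTRL in their titles. No treatment, genotype, strain, sex or adult age is given in the sources used here, and all groups share the same dissection of the nerve out of the cochlea.

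The tectorial membrane is a sheet of extracellular matrix that lies over the hair cells of the cochlea and is deflected against their hair bundles by sound. Alpha- and beta-tectorin, encoded by Tecta and Tectb, carry zona pellucida domains and make up its striated-sheet matrix together with carcinoembryonic antigen-related protein 16, a secreted protein encoded by Ceacam16. Otogelin and otogelin-like, encoded by Otog and Otogl, are large mucin-type proteins of the acellular membranes of the inner ear, and otoancorin, encoded by Otoa, sits where the membrane attaches to the spiral limbus. All are known as products of epithelial cells of the inner ear, and not of neurons or Schwann cells. In bulk RNA, fewer cells of a type and less RNA per cell cannot be told apart.

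The deposited values are read counts divided by 1 size factor per library, called normalized counts below. Libraries held between 35250157 and 42258736 recovered reads, and 3 reads, taken as the floor of detection, were worth between 2.53 and 3.65 normalized counts. Neuronal and glial markers were present at every age: the 10 neuronal genes summed to between 50857 and 454074 normalized counts and the 8 glial genes to between 190348 and 1206130. The Y-linked gene Eif2s3y was listed at or near 0 in 4 libraries, so sex goes partly with age. They were replicate 1 of P14, replicates 1 and 2 of P21 and replicate 3 of the adults. Each count of called genes below was also made without these 4 libraries. The result is given where a count of listed genes moved by more than 1.5 times, leaving aside moves between 0 and 1. P7 replicates are numbered 4 to 6.

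Promoter sequence was available for Tecta, Tectb, Otog and Otoa. The 250 bases before the RefSeq start of Tecta and Tectb are shown because these genes had the largest falls of the 6 at P14 against P7, and those of Otoa because its fall there was the smallest of the 4 called (build GRCm38.p6, each 5′ to 3′ on the strand of its gene). Capitals mark matches to the motifs searched.
Tecta, chr9:42399948-42400197, minus strand: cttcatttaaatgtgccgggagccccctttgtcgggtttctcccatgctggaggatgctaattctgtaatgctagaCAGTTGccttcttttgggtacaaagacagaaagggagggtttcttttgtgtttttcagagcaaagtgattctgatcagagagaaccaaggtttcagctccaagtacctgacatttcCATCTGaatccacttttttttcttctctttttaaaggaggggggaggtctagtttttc
Tectb, chr19:55180476-55180725, plus strand: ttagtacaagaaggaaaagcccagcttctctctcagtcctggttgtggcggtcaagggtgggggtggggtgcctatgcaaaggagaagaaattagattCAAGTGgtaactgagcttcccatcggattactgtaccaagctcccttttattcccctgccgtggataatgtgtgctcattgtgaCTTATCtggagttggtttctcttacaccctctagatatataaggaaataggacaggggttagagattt
Otoa, chr7:121083174-121083423, plus strand: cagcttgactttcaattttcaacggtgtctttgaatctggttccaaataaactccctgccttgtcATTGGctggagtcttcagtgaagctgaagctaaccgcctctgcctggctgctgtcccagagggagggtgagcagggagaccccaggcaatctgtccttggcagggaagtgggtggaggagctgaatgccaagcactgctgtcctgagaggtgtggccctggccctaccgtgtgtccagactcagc

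Motifs were searched on both strands. The promoter elements were the TATA box (TATAAA) and the CCAAT box (CCAAT). The motif of helix-loop-helix factors was the E-box (CANNTG), and that of SOX factors was its core (ATTGTT). The remaining motifs were that of nuclear receptors (AGGTCA), that of AP-1 (TGANTCA) and that of GATA factors (GATAAG). Tecta held 2 E-boxes, CAGTTG and CATCTG, beginning 174 and 58 bases before the start. Tectb held the E-box CAAGTG at 152 bases and, on the reverse strand, GATAAG (printed as CTTATC) at 68 bases. Otoa held CCAAT on the reverse strand (printed as ATTGG) at 185 bases, and Otog, not printed, held the E-box CAGGTG at 250 bases and CCAAT in reverse at 239 bases. Among 32851 promoter windows of the same length, 66.2% held an E-box, 33.8% the CCAAT box, 6.5% the GATA motif, 12.4% the TATA box, 9.4% the SOX core, 14.0% the nuclear receptor motif and 6.7% that of AP-1. These matches describe the letters in the windows and no more.

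All 6 genes had values above the floor in every library, and each differed between the 5 ages (limma moderated F test, adjusted p at most 0.0024), as did 85.4% of the 16723 genes tested. The ages changed the genes by very different amounts. The mean at the highest age over that at the lowest was 5463 for Ceacam16, 920 for Tectb, 277 for Tecta, 4.69 for Otogl, 2.92 for Otoa and 2.53 for Otog. Tecta and Tectb were highest in the first postnatal week, and Ceacam16 from P14 on.

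**Figure D1:**
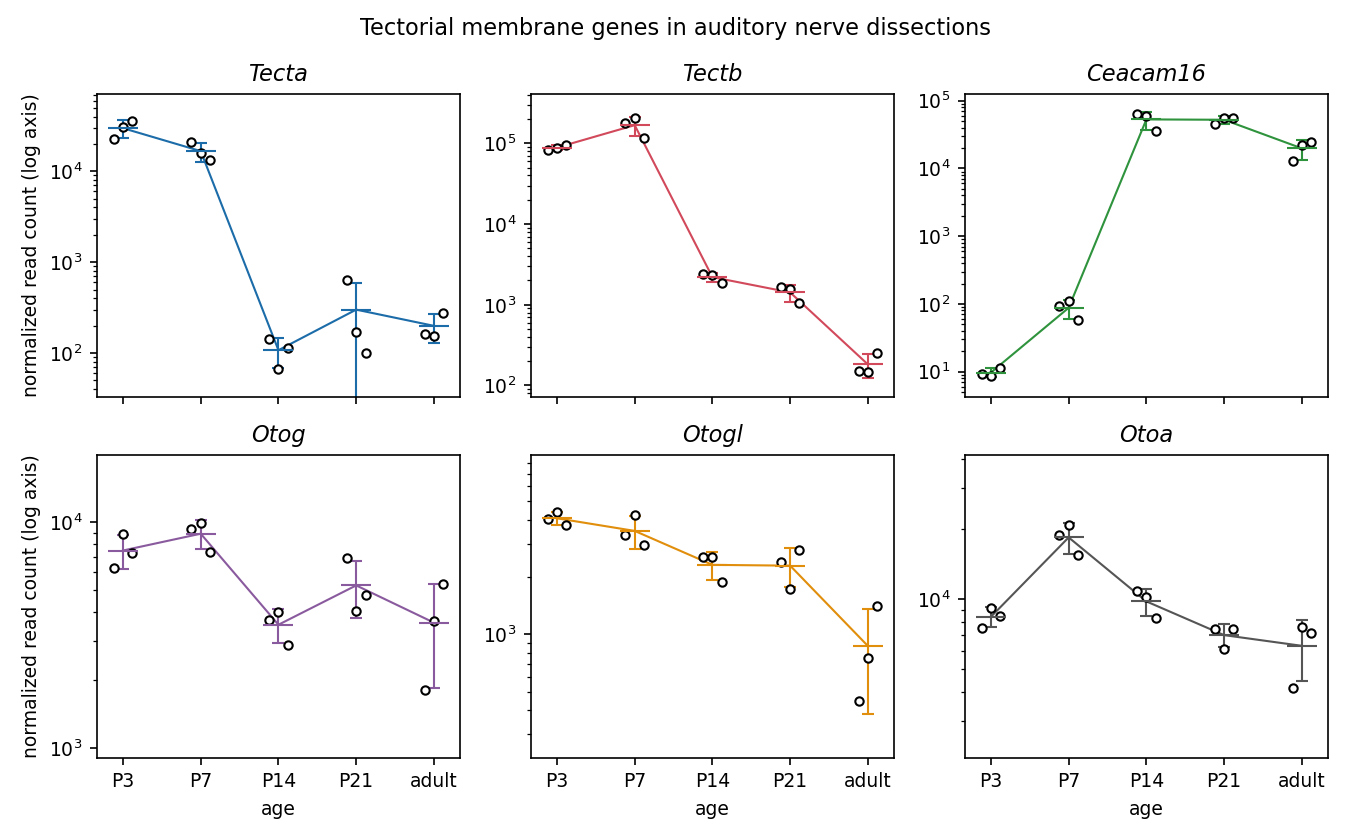
Normalized read counts (log axis) of the 6 genes in each library by age, with the mean (line) and SD (bars) of 3 libraries an age; the lower bar of Tecta at P21 runs off the axis because its SD, 288, is close to its mean, 301. Tecta and Tectb stand high at P3 and P7 and Ceacam16 at P14, P21 and in adults.

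Tecta, which encodes alpha-tectorin (mm10 chromosome 9, 42329619 to 42399929, minus strand, 24 exons), stood at 22758, 30844 and 35914 normalized counts at P3 and at 20932, 15802 and 13312 at P7. It stood at 143, 66.3 and 114 at P14, at 631, 171 and 101 at P21 and at 163, 155 and 279.5 in adults. All 6 libraries of the first week lay above all 9 later ones, and P21 replicate 1 stood apart from the other two of its age. The P14 mean was 108 ± 38.5 (SD, n = 3) against 16682 ± 3886 at P7, a difference of -7.31 ± 0.52 (log2 ± SE, adjusted p = 1.73e-07, limma). From high to low the order was P3, P7, P21, adult, P14. Of the neighbours in that order, P7 and P3 did not overlap but their difference was not called (-0.84 ± 0.52, adjusted p = 0.243, limma), P21 was below P7 (where 56.5% of all genes were called; -6.20 ± 0.52, adjusted p = 3.87e-07), and neither adult against P21 (-0.20 ± 0.52, adjusted p = 0.762) nor adult against P14 (48.5% of all genes called; 0.90 ± 0.52, adjusted p = 0.166) was called. The P7 against P3 difference was called in a fit of those libraries alone (adjusted p = 0.0187), without the 4 libraries low in Eif2s3y (0.0216) and by limma-voom (0.0499). Without P21 replicate 1 the adult against P21 difference turned to 0.55 (adjusted p = 0.223) and P21 against P14 was 0.35 (adjusted p = 0.563), neither called.

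Tectb, which encodes beta-tectorin (mm10 chromosome 19, 55180885 to 55196313, plus strand, 10 exons), stood at 82889.8, 88698 and 94152 normalized counts at P3 and at 178796, 207225 and 117858 at P7. It stood at 2431, 2320.3 and 1852 at P14, at 1649.6, 1580.1 and 1037 at P21 and at 151, 145 and 252 in adults. No 2 ages overlapped: every P7 library lay above every P3 library, and each later age lay below the one before it. Tectb rose at P7 to 167960 ± 45658 against 88580 ± 5632 at P3 (SD, n = 3 each; log2 0.89 ± 0.24 SE, adjusted p = 0.0161, limma). That call rested on the P7 libraries, since without P7 replicate 4 it was 0.82 (adjusted p = 0.0597) and without P7 replicate 5 it was 0.71 (0.0768), and with quantile normalization it was 0.70 (0.0645). The gene fell at P14 to 2201 ± 307, a log2 change of -6.22 ± 0.24 (adjusted p = 2.72e-09), and again in adults to 183 ± 59.8 against 1422 ± 335 at P21, a log2 change of -2.97 ± 0.24 (adjusted p = 1.87e-05). The step at P21 against P14 was -0.65 ± 0.24 and was not called (adjusted p = 0.112). From high to low the order was P7, P3, P14, P21, adult, and P14 was below P3 by a log2 change of -5.34 ± 0.24 (adjusted p = 2.27e-09), a comparison with 58.1% of all genes called.

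Ceacam16 (mm10 chromosome 7, 19852097 to 19861299, minus strand, 6 exons) was barely detected at the youngest age. The P3 libraries held 11, 9 and 12 reads, or 9.27, 8.54 and 11.3 normalized counts, and the P7 libraries 94, 111 and 57.3. It stood at 63955, 59747 and 35337 at P14, at 44806, 56191 and 56049 at P21 and at 12777, 21875 and 24767 in adults. P14 and P21 libraries overlapped, adult libraries lay below both, and every P7 library lay above every P3 library and far below all later ones. Ceacam16 rose at P7 to 87.5 ± 27.6 against 9.7 ± 1.43 at P3 (SD, n = 3 each; log2 3.00 ± 0.29 SE, adjusted p = 1.72e-05, limma). These folds use log2(value + 1), and with a pseudocount of 10 this one was 2.27 (adjusted p = 9.86e-05). At P14 it rose to 53013 ± 15452 against 87.5 ± 27.6 at P7, 606 times the P7 mean (log2 9.23 ± 0.29 SE, adjusted p = 1.06e-09). P21 did not pass the test against P14 (0.02 ± 0.29, adjusted p = 0.975). In adults the gene fell to 19806 ± 6257 against 52349 ± 6532 at P21 (log2 -1.45 ± 0.29 SE, adjusted p = 0.00157), still above P7 by 7.80 ± 0.29 (adjusted p = 1.45e-10), where 67.6% of all genes were called. The order from high to low was P14, P21, adult, P7, P3.

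The gene Gm19345 lies on the opposite strand across Ceacam16 and shares 380 of the 1635 exon bases of Ceacam16. Whether reads were counted by strand is not given in the sources used here, so reads of the pair cannot be told apart there. Gm19345 averaged 44.1 normalized counts at P3, 207 at P7, 1262 at P14, 1292 at P21 and 1231 in adults, and rose at P14 against P7 by 2.56 ± 0.41 (log2 ± SE, adjusted p = 0.000193, limma). Ceacam16 was 0.188 to 0.244 times Gm19345 in the P3 libraries and 0.305 to 0.485 times in the P7 libraries. It was 35.8 to 52.4 times Gm19345 at P14, 27.9 to 118 times at P21 and 15.1 to 17.3 times in adults.

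Otog, which encodes otogelin (mm10 chromosome 7, 46240987 to 46311434, plus strand, 56 exons), stood at 6301, 8896 and 7322 normalized counts at P3 and at 9338, 9957 and 7425 at P7. It stood at 3683, 4023 and 2869.6 at P14, at 6927, 4063 and 4792 at P21 and at 1818, 3672 and 5314 in adults. The P14 libraries lay below all P3 and P7 libraries, while the adult libraries spread over about a 3-fold range that overlapped P14 and P21. Otog fell at P14 to 3525 ± 593 against 8906 ± 1320.1 at P7 (SD, n = 3 each; log2 -1.34 ± 0.31 SE, adjusted p = 0.00319, limma). From high to low the order was P7, P3, P21, adult, P14, and no neighbours in it differed beyond their spread. Adult against P21 was -0.64 ± 0.31 (adjusted p = 0.105), but was called without adult replicate 3 (-0.99, adjusted p = 0.0176) and with quantile normalization (-0.76, adjusted p = 0.049).

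Otogl, which encodes otogelin-like (mm10 chromosome 10, 107762310 to 107912134, minus strand, 58 exons), stood at 4053, 4406 and 3779 normalized counts at P3 and at 3318, 4247 and 2938 at P7. It stood at 2548, 2539.7 and 1875 at P14, at 2402, 1723 and 2771 at P21 and at 448, 754 and 1406 in adults. Every adult library lay below every library of the other ages, and the 3 adult libraries spanned about a 3-fold range among themselves. Otogl fell in adults to 869 ± 489 against 2299 ± 531 at P21 (SD, n = 3 each; log2 -1.53 ± 0.31 SE, adjusted p = 0.00197, limma). The means went down in order of age, from P3 through P7, P14 and P21 to adult, but of these steps the last alone was called. P14 against P7 was -0.59 ± 0.31 with no overlap of libraries (adjusted p = 0.14), and was called without adult replicate 3 (0.0426), in a fit of those libraries alone (0.0228) and, at -0.66, without the 4 libraries low in Eif2s3y (0.0356).

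Otoa, which encodes otoancorin (mm10 chromosome 7, 121083438 to 121163089, plus strand, 29 exons), stood at 7505, 9182 and 8487 normalized counts at P3 and at 18897, 20865 and 15458 at P7. It stood at 10828, 10165 and 8319 at P14, at 7461, 6076 and 7461 at P21 and at 4157, 7614 and 7119 in adults. The P7 libraries lay above all others, and adult replicate 1 was the lowest of the 15. Otoa rose at P7 to 18407 ± 2737 against 8391 ± 842 at P3 (SD, n = 3 each; log2 1.13 ± 0.20 SE, adjusted p = 0.0013, limma). It fell at P14 to 9770.4 ± 1299.9 against its P7 level (log2 -0.91 ± 0.20 SE, adjusted p = 0.00194). From high to low the order was P7, P14, P3, P21, adult, and below P7 no neighbours were called, although P21 and P3 did not overlap (-0.26 ± 0.20, adjusted p = 0.259; of all genes 64.5% were called and 65.7% did not overlap). Without adult replicate 1 the step at P21 against P14, -0.48 ± 0.20, was called (adjusted p = 0.0441, against 0.149 with all libraries), and adult against P21 turned to 0.08 (adjusted p = 0.693), not called.

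At P7 against P3, 3 of the 6 genes rose (Ceacam16, Otoa and Tectb) and none was called lower. Without the 4 libraries low in Eif2s3y these 3 rose and Tecta fell. Of all genes tested, 28.1% were called in this comparison, 15.4% higher and 12.8% lower. The libraries of both ages did not overlap for Tecta, Tectb, Ceacam16 and Otoa, as for 54.2% of all genes tested. The count over all genes, 4703, was 3124 without P3 replicate 3 and 3080 without P7 replicate 5.

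At P14 against P7, the week in which mice begin to hear, 5 of the 6 genes were called: Ceacam16 rose and Tecta, Tectb, Otog and Otoa fell. Without the 4 libraries low in Eif2s3y Otogl fell as well. Over all genes 48.1% were called, 24.3% higher and 23.8% lower, and in 61.4% the libraries did not overlap, as in all 6 genes. The sizes for Ceacam16, Tecta and Tectb stood far out among the 16723 genes tested. Ceacam16 ranked 1 from the largest rise, Tecta ranked 2 and Tectb ranked 4 from the largest fall, while Otog ranked 872, Otoa 1667 and Otogl 2923 from the largest fall.

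At P21 against P14 none of the 6 was called by limma, where 9.29% of all genes were, 3.29% higher and 6.0% lower. The libraries did not overlap for Tectb, Otog and Otoa, as for 24.4% of all genes. Tectb and Otoa reached an unadjusted p under 0.05 (limma), a threshold at which the share of all genes was not counted. Tectb, Otoa and Tecta had unadjusted p of 0.0188, 0.031 and 0.0515, and DESeq2 and edgeR, run as alternatives, likewise called none of the 6. The background itself moved, with 1553 genes called from all libraries, 979 without P14 replicate 2 and 631 without P14 replicate 3.

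In adults against P21, Tectb, Otogl and Ceacam16 fell and none rose. Of all genes 49.4% were called, 24.1% lower and 25.4% higher, and the libraries did not overlap in 56.1%, as in these 3 of the 6. Without the 4 libraries low in Eif2s3y, which leaves P21 with 1 library assumed to vary like the other ages, the same 3 were called.

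Over the whole span, adult against P3, Ceacam16 rose by 10.81 ± 0.29 (log2 ± SE, adjusted p = 1.42e-11, limma), the largest rise of all genes tested (9.92 with a pseudocount of 10). Tectb fell by a log2 change of -8.96 ± 0.24 (adjusted p = 1.42e-11), Tecta of -7.25 ± 0.52 (3.49e-08), Otogl of -2.38 ± 0.31 (1.43e-05) and Otog of -1.18 ± 0.31 (0.00442). Otoa differed by -0.46 ± 0.20 and was not called (adjusted p = 0.0542). So 5 of the 6 were called, where 68.7% of all genes were, 34.4% higher and 34.3% lower, and the libraries of the same 5 did not overlap, as for 76.4% of all genes. Otoa was called lower without P21 replicate 2 (adjusted p = 0.0499), without adult replicate 2 (-0.62, 0.0194), without adult replicate 3 (-0.57, 0.0371) and with quantile normalization (-0.75, 0.00258). The authors' deposited table, which compares the 4 postnatal ages, gives signed fold changes of 606 for Ceacam16, -155 for Tecta and -76.3 for Tectb at P14 against P7.

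**Figure D2:**
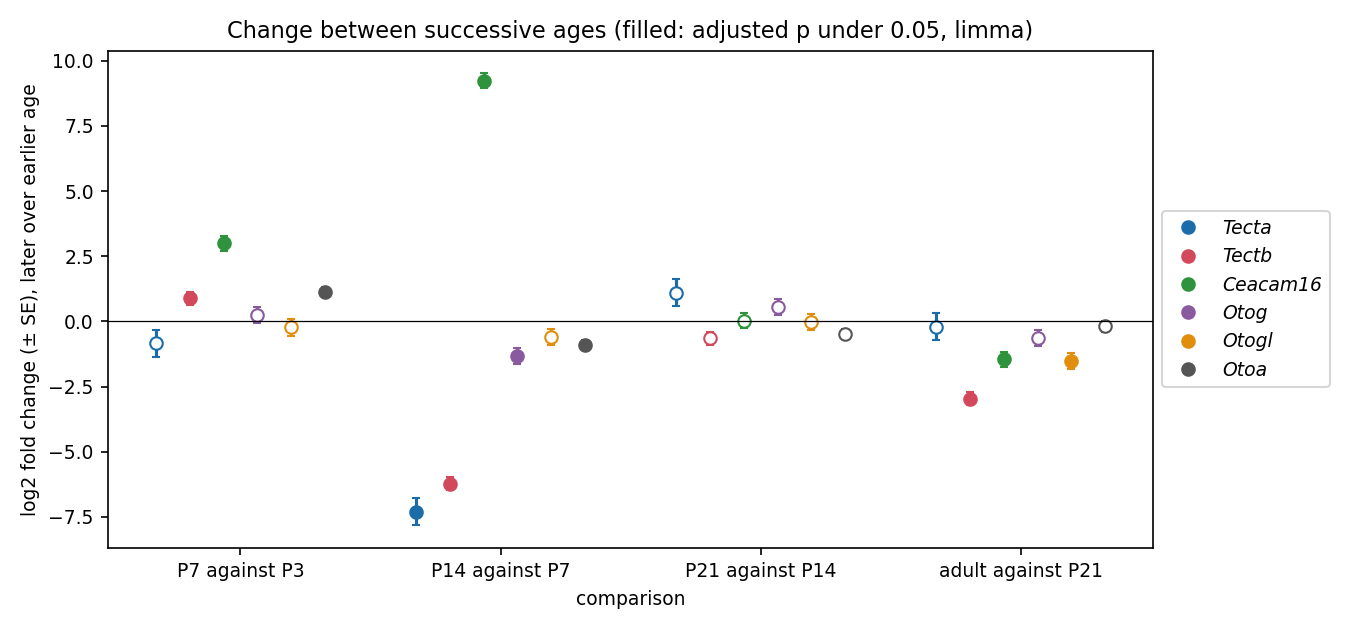
Log2 fold change of each gene (later over earlier age, ± SE from limma) in the 4 comparisons of successive ages; filled points have an adjusted p under 0.05. The changes at P14 against P7 of Ceacam16 (9.23), Tecta (-7.31) and Tectb (-6.22) lie beyond those of the other 3 genes in that comparison.

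Levels of different genes were compared per kilobase of exon. At P3, Tectb stood at 30619 ± 1947 normalized counts per kilobase (SD, n = 3), Tecta at 4066 ± 904, Otoa at 2055 ± 206, Otog at 742 ± 129, Otogl at 466 ± 35.9 and Ceacam16 at 5.94 ± 0.874. Tectb thus led every other member at P3 and did so at P7 too, at 58057 ± 15782 per kilobase. At P14 Ceacam16 led at 32424 ± 9451 per kilobase, above Otoa at 2392 ± 318 and Tectb at 761 ± 106. In adults Ceacam16 still led at 12114 ± 3827 per kilobase, followed by Otoa at 1542 ± 458, Otog at 356 ± 173 and Otogl at 99.2 ± 55.8, with Tectb at 63.1 ± 20.7 and Tecta at 27.2 ± 9.47.

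As a share of the per-kilobase sum of the 6 genes, Tectb made up 80.8 ± 1.6% at P3, 87.5 ± 1.6% at P7, 2.17 ± 0.36% at P14, 1.43 ± 0.45% at P21 and 0.460 ± 0.129% in adults (SD, n = 3). Ceacam16 made up 0.0156 ± 0.0018% at P3, 0.0800 ± 0.0056% at P7, 89.2 ± 1.8% at P14, 91.2 ± 2.1% at P21 and 85.3 ± 0.4% in adults. One gene held between 79.6% and 92.8% of the sum in each library, Tectb in the first week and Ceacam16 from P14. Otoa held the next largest share from P7 on, at 6.96 ± 0.89% at P7, 6.83 ± 1.20% at P14, 4.95 ± 0.95% at P21 and 10.9 ± 1.0% in adults. Together the 6 genes took 0.385 ± 0.027% of all normalized counts at P3, 0.571 ± 0.141% at P7, 0.174 ± 0.045% at P14, 0.172 ± 0.009% at P21 and 0.0718 ± 0.0234% in adults.

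**Figure D3:**
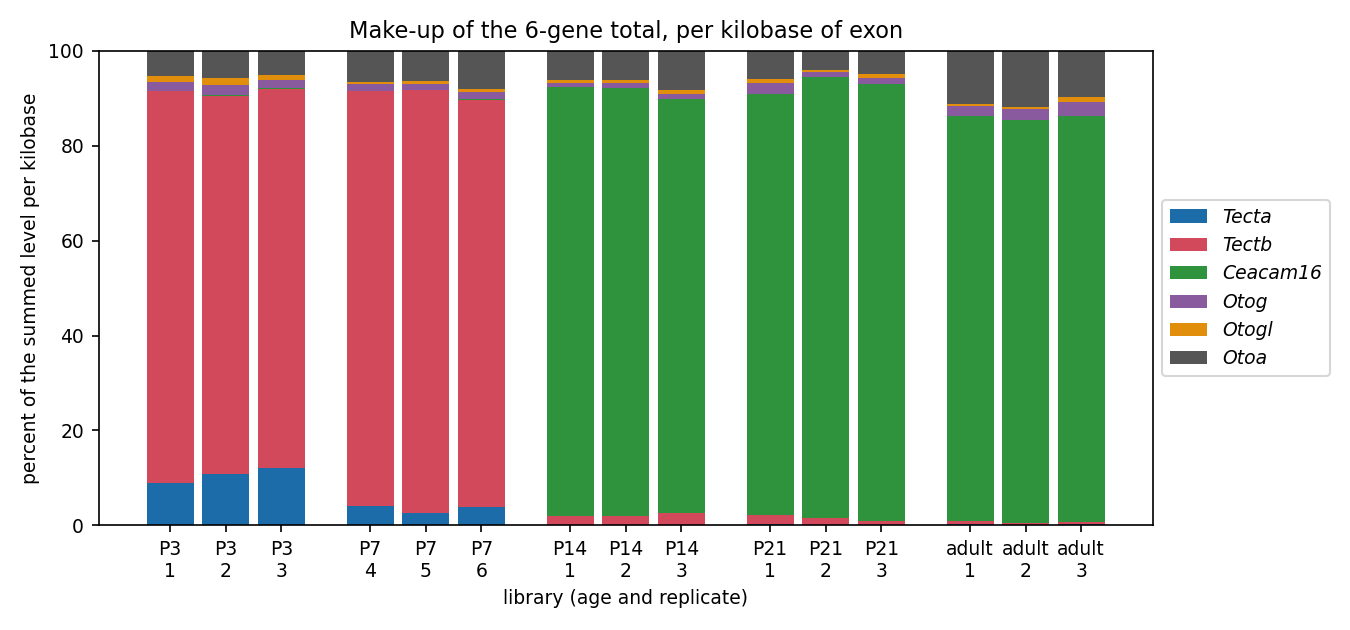
Share of each gene in the sum of the 6 genes per kilobase of exon (percent), 1 bar per library. Tectb fills 79.6% to 89.1% of the bars at P3 and P7, and Ceacam16 84.9% to 92.8% of those at P14, P21 and adult.

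Ratios of 2 genes within a library were taken as log2 of values with a pseudocount of 1, so library scaling enters them only through the pseudocount. The log2 ratio of Ceacam16 to Tectb averaged 5.51 ± 1.04 in the 9 libraries from P14 on against -11.96 ± 1.17 in the 6 libraries of P3 and P7 (SD), a difference of 17.47, or 16.92 with a pseudocount of 10 (exact two-sided permutation test over libraries, p = 0.0003996, the smallest that 5005 regroupings can give, and 0.0007992 adjusted over 4 ratios). That of Otoa to Tecta averaged 5.50 ± 1.11 from P14 on against -0.83 ± 1.10 before, a difference of 6.33 with the same exact p. For Tecta to Tectb the difference was 0.15 (exact permutation p = 0.886, adjusted 0.886), and for Otog to Otogl 0.18 (exact permutation p = 0.561, adjusted 0.748). The shift between the first week and later ages passed the test for the first pair of ratios and did not for the second pair. In both pairs later ages differed among themselves, which the test does not measure. It shuffles libraries freely although they come from 5 ages, so its p does not describe the spread between ages. For Ceacam16 to Tectb the p also follows from the opposite changes of both genes given above, and is no separate support. The log2 ratio of Tecta to Tectb averaged -4.40 at P14, -2.65 at P21 and 0.12 in adults, and that of Ceacam16 to Tectb 4.55, 5.22 and 6.74.

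The ratio of the 2 tectorin genes differed from age to age. Tecta was 0.275 to 0.382 times Tectb at P3, 0.0762 to 0.117 times at P7, 0.0286 to 0.0614 times at P14, 0.0972 to 0.382 times at P21 and 1.07 to 1.11 times in adults, all as normalized counts not scaled to length. The adult ratios were the highest and, on the log2 scale, the closest together (SD 0.029). Otog was 1.56 to 2.02 times Otogl at P3, 2.34 to 2.81 times at P7, 1.45 to 1.58 times at P14, 1.73 to 2.88 times at P21 and 3.78 to 4.87 times in adults, where Otogl had fallen.

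**Figure D4:**
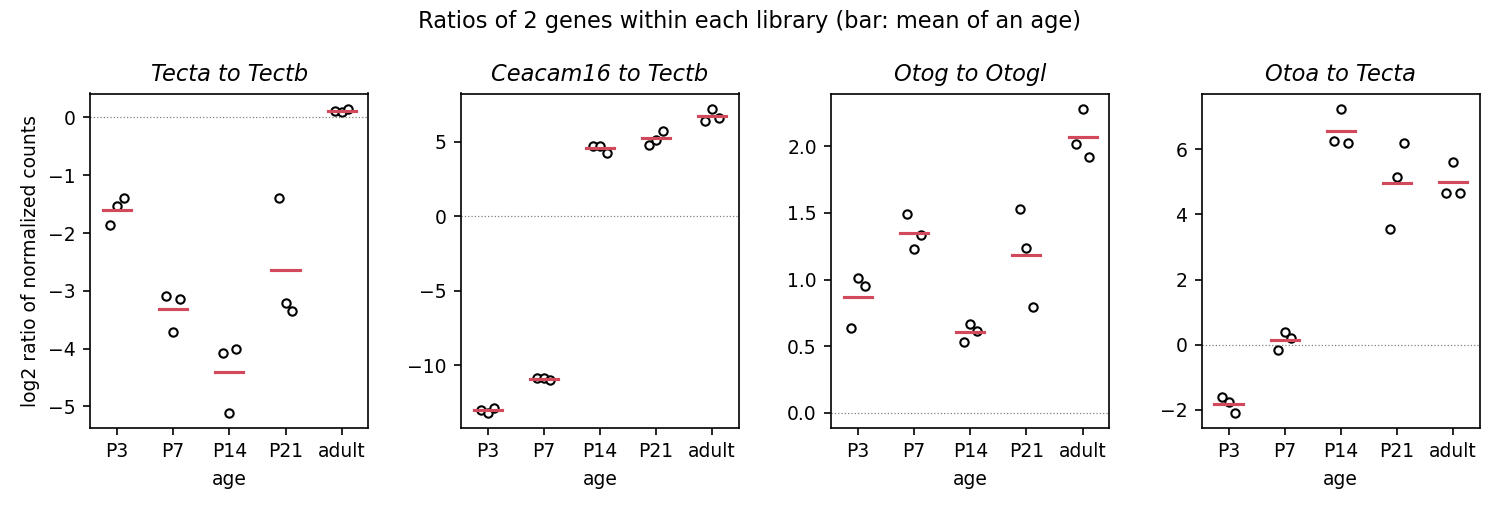
Log2 ratio of 2 genes within each library by age (points, with the mean of each age as a bar). Ceacam16 to Tectb and Otoa to Tecta separate P3 and P7 from the later ages, and Tecta to Tectb and Otog to Otogl are highest in adults.

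At P7, P14 and in adults most of the 6 genes were high or low in the same library. P7 replicate 6 was the lowest of its age for 6 of 6 genes and P7 replicate 5 the highest for 5. P14 replicate 3 was lowest for 5 and P14 replicate 1 highest for 5, and adult replicate 1 was lowest for 4 and adult replicate 3 highest for 5. At P3 replicate 1 was lowest for 4, while replicates 2 and 3 were highest for 3 each. P21 showed no such library: its replicates were lowest for 1, 3 and 2 genes and highest for 3, 1 and 2. After each age mean was taken off, the log2 deviations of Otog followed those of Otoa (Pearson r = 0.877 over 15 libraries) and Otogl (0.875) closely, and Otogl followed Otoa (0.804). Ceacam16 deviated with Otoa (0.767) and Tectb with Otog (0.612), while Tecta and Ceacam16 showed no common deviation (-0.0032). These correlations describe libraries that share their scaling and dissection, and carry no test.

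Markers of cochlear epithelium moved with these libraries at P7, P14 and in adults, and did not at P3 and P21. The 10 genes of the greater epithelial ridge and spiral limbus, where the tectorial membrane is secreted and anchored, summed to 136597 normalized counts in P7 replicate 6 against 163313 and 178685 in the other two of that age, and to 101608 in P14 replicate 3 against 135084 and 153249. In adults they summed to 57536 in replicate 1, 65544 in replicate 2 and 75840 in replicate 3. At P3 they summed to 119367 in replicate 1, where 4 of the 6 genes were lowest, against 99542 and 93569. At P21 they summed to 152655 in replicate 2, where Otog, Otogl and Otoa were lowest, against 95981 and 111583. The 15 hair cell genes summed to 13195, 15704 and 19082 in the same 3 adult libraries, with Myo6 the largest part (adult mean 9093). Moving with these libraries was not particular to epithelium. Fibrocyte genes summed to 381777 in P14 replicate 3 against 677934 and 769582, and to 351615 in adult replicate 1 against 554006 and 441709. At P7 their lowest sum was 133806, in replicate 4. Glial genes went the other way, at 865683 in P7 replicate 6 against 705881 and 716720. They summed to 1206130 in P14 replicate 3 against 880035 and 891555, and to 412283 in adult replicate 1 against 375586 and 358911. The part of tissue make-up in the differences between libraries was not tested.

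Across ages the summed level of the ridge and limbus list was highest at P7 and lowest in adults. Epyc and Clu hold most of that sum at every age, with means of 68022 and 64186 at P7. The ridge and limbus list summed to between 93569 and 119367 at P3, 136597 and 178685 at P7, 101608 and 153249 at P14, 95981 and 152655 at P21 and 57536 and 75840 in adults. At P14 against P7, 1 of its 9 tested genes rose, 3 fell and 5 were not called (over all genes 24.3% rose and 23.8% fell), with a median log2 fold change of -0.59 against -0.02 over all genes. Lfng, a modifier of Notch receptors, Jag1, a Notch ligand, and Sox2, a transcription factor of prosensory and supporting cells, fell by log2 changes of -1.17, -1.08 and -1.11, and Fgf10, a growth factor, rose by 0.52 (adjusted p at most 0.00735, limma). Epyc, a matrix proteoglycan of the ridge, averaged 27055 at P3, 68022 at P7, 46181 at P14, 34466 at P21 and 7809 in adults, and fell in adults against P21 by -2.09 on the log2 scale (adjusted p = 0.000529). Clu and Lfng were likewise highest at P7 and lowest in adults, while Fgf10 was highest in adults (mean 7697) and Jag1 at P3 (3404). No marker of this list was at 0 in all libraries of an age, and the lowest, Fgf20, averaged at most 12.9 and was not tested.

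The other cells that the dissection could hold were followed in the same way. At P14 against P7 the 13 supporting cell genes gave 5 rises and 2 falls, the 15 hair cell genes 1 fall and no rise, and the 7 fibrocyte genes 3 rises and 2 falls, where of all genes 24.3% rose and 23.8% fell. Without the 4 libraries low in Eif2s3y 2 hair cell genes fell. Hair cell genes summed to between 16095 and 19212 at P14 against 14626 and 18412 at P7. Myo6 holds the largest part of that sum, with means of 9169 at P14 and 8332 at P7. Fibrocyte genes summed to between 381777 and 769582 at P14 against 133806 and 148353 at P7. Coch and Otos, secreted proteins of cochlear fibrocytes, rose at P14 by 3.25 and 1.57 on the log2 scale (adjusted p = 4e-07 and 0.00013, limma), in the comparison in which Ceacam16 rose by 9.23, and they hold most of the fibrocyte sum at P14. Pou3f4 and Tbx18, transcription factors of the same list, fell by log2 changes of -0.67 and -0.96 (adjusted p = 0.00047 and 0.00032). Of 10 neuronal genes 8 rose at P14 against P7, 1 fell and 1 was not called, and of 8 glial genes 2 rose, 0 fell and 6 were not called. Of the 2 glial rises 1 was left without the 4 libraries or without P14 replicate 2, and 0 without P7 replicate 4 or 5 or P14 replicate 1 or 3. In adults against P21, 9 of 15 hair cell genes, 4 of 13 supporting cell genes and 4 of 7 fibrocyte genes fell, where 24.1% of all genes did, in the comparison in which Tectb, Otogl and Ceacam16 fell. Among them was Ocm, an outer hair cell calcium buffer (-3.05, adjusted p = 0.00128), at -3.66 without P21 replicate 1 and -3.77 without adult replicate 3. Of these lists 1 gene rose, Prox1, a transcription factor in the supporting cell list (1.04, adjusted p = 0.00815). Without the 4 libraries low in Eif2s3y 8 hair cell, 1 supporting cell and 0 fibrocyte genes fell. Without adult replicate 2 the hair cell count was 5 and the supporting cell count 2, and without P21 replicate 2 the supporting cell count was 1. Of the hair cell markers, Atoh1 averaged 0.345 at P14, under the floor. These lists share genes: Sox2 and Jag1 stand in both the ridge and the supporting cell list, Gjb2 in the supporting cell and fibrocyte lists and Strc in the hair cell list and in that of attachment genes. The part of these cells in the changes of the 6 genes was not tested.

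The collagens of the tectorial membrane, which bundle into fibrils within the glycoprotein matrix, fell at P21 and again in adults. Col2a1, the chain of type II collagen, averaged 212050 normalized counts at P3, 222940 at P7, 164520 at P14, 31954 at P21 and 4769 in adults. Of the 7 collagen genes none was called at P7 against P3, 4 fell at P14 against P7 (of all genes 23.8% did), all 7 fell at P21 against P14 (6.0%) and all 7 fell in adults against P21 (24.1%). At P14 against P7, Col2a1, Col11a1 and Col11a2 were the 3 not called (adjusted p = 0.0736, 0.676 and 0.672, limma). The median log2 fold changes of all 7 were -0.62 at P14 against P7, -1.80 at P21 against P14, -1.15 in adults against P21 and -4.27 in adults against P3, beside medians over all genes of -0.02, 0.00, 0.00 and -0.01. Col9a1, a chain of type IX collagen, fell by -3.08 on the log2 scale at P21 against P14 (adjusted p = 5.48e-08, limma), a comparison in which none of the 6 glycoprotein genes was called. These collagens are also the main ones of cartilage, and cartilage in the dissection was not measured apart.

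Of 10 genes tied to formation or attachment of the membrane, 4 rose and none fell at P7 against P3, where 15.4% of all genes rose and 12.8% fell, and 3 rose and 5 fell at P14 against P7, where 24.3% rose and 23.8% fell. Dio2, the enzyme that makes active thyroid hormone, averaged 9802 at P3, 24052 at P7, 7534 at P14, 2928 at P21 and 655 in adults. It rose at P7 by 1.31 (adjusted p = 0.00296) and fell at P14 by -1.70 (adjusted p = 0.000145) on the log2 scale (limma), the directions in which Tectb and Otoa were called. Thrb, a thyroid hormone receptor, fell at P14 by -0.78 (adjusted p = 2.07e-05), and Hpn, hepsin, a membrane serine protease, by -1.43 (adjusted p = 0.00011). Emilin2, an extracellular glycoprotein, rose at P7 by 1.84 and at P14 by 1.12 (adjusted p = 0.000457 and 0.0044), as Ceacam16 did, and fell in adults against P21 by -1.27 (adjusted p = 0.00268). Strc, which encodes stereocilin, the attachment protein of outer hair cell bundles, averaged 265 at P3, 422 at P7, 294 at P14, 555 at P21 and 190 in adults. It was called in adults against P21 alone (-1.83, adjusted p = 0.00932, limma). The change was -2.53 without adult replicate 3 and -3.18 without the 4 libraries low in Eif2s3y. In a fit of both ages alone the call was lost (-1.83, adjusted p = 0.0591, limma).

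Relatives of these genes by protein family were followed too, at P14 against P7, where 24.3% of all genes rose and 23.8% fell. In the otoancorin and stereocilin family, none of Strc, Msln and Mslnl was called at P14 against P7, and Mslnl averaged at most 43.3 normalized counts. In the carcinoembryonic antigen family, 4 of 7 listed genes were in the table and 3 were tested. Ceacam10 averaged 22.7 at P3, 73.9 at P7, 173 at P14, 94.3 at P21 and 230 in adults, and rose by 1.20 at P14 against P7 (adjusted p = 0.00184, limma). Ceacam1 rose by 0.46 in that comparison (adjusted p = 0.0111), although it has a close paralog, Ceacam2, with which reads may be split, and its call was lost without P7 replicate 4 or 5 or P14 replicate 2 (adjusted p = 0.0516 to 0.058). Among zona pellucida domain genes, 9 of 12 were in the table and 6 tested, of which 2 rose and 2 fell at P14 against P7. No rise was left without P7 replicate 4 or P14 replicate 2, and 1 was left without each of 6 other libraries and by edgeR or DESeq2. Zpld1, a protein of the cupula of the vestibular organs, averaged 4.19 at P14 against 57.4 at P7 and fell by -3.47 (adjusted p = 8.81e-05; -2.19 with a pseudocount of 10). Umodl1, uromodulin-like, averaged 1625 at P7 against 393 at P3 and 9.10 in adults, and its call at P7 against P3 (adjusted p = 0.0397) was lost with a pseudocount of 0.1 (0.0698), without any 1 of the 6 libraries compared (0.0712 to 0.106) and without P14 replicate 2 (0.0509). Among von Willebrand D domain and mucin-type genes, 11 of 12 were in the table and 9 tested, of which 1 rose and 4 fell at P14 against P7. Without any 1 of the P7 libraries, or without P14 replicate 1, 2 of them fell, and without P21 replicate 2 or the 4 libraries 2 rose.

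Genes of the other acellular membranes of the inner ear were followed as well. Of 10 otoconial and cupular genes, 2 rose, 4 fell and 4 were not called at P14 against P7. Of all genes 24.3% rose and 23.8% fell. The 2 rises were Otop1 (2.09, adjusted p = 4.19e-05, limma) and Sparc (0.61, adjusted p = 0.0016), opposite to the tectorins. Otop1 averaged 86.6 normalized counts at P3, 503 at P7, 2144 at P14 and 1812 in adults. Oc90, the main otoconial matrix protein, averaged 20726 normalized counts at P3, 16015 at P7, 645 at P14, 38.7 at P21 and 2.58 in adults. The adult mean is under the floor of those libraries (3.12 to 3.65). Oc90 fell by -4.63 at P14 against P7 (adjusted p = 2.69e-08, limma), next to -7.31 for Tecta and -6.22 for Tectb. Otol1, otolin, averaged 58.9 in adults against 528 at P21 and fell (-3.28, adjusted p = 0.000495).

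**Figure D5:**
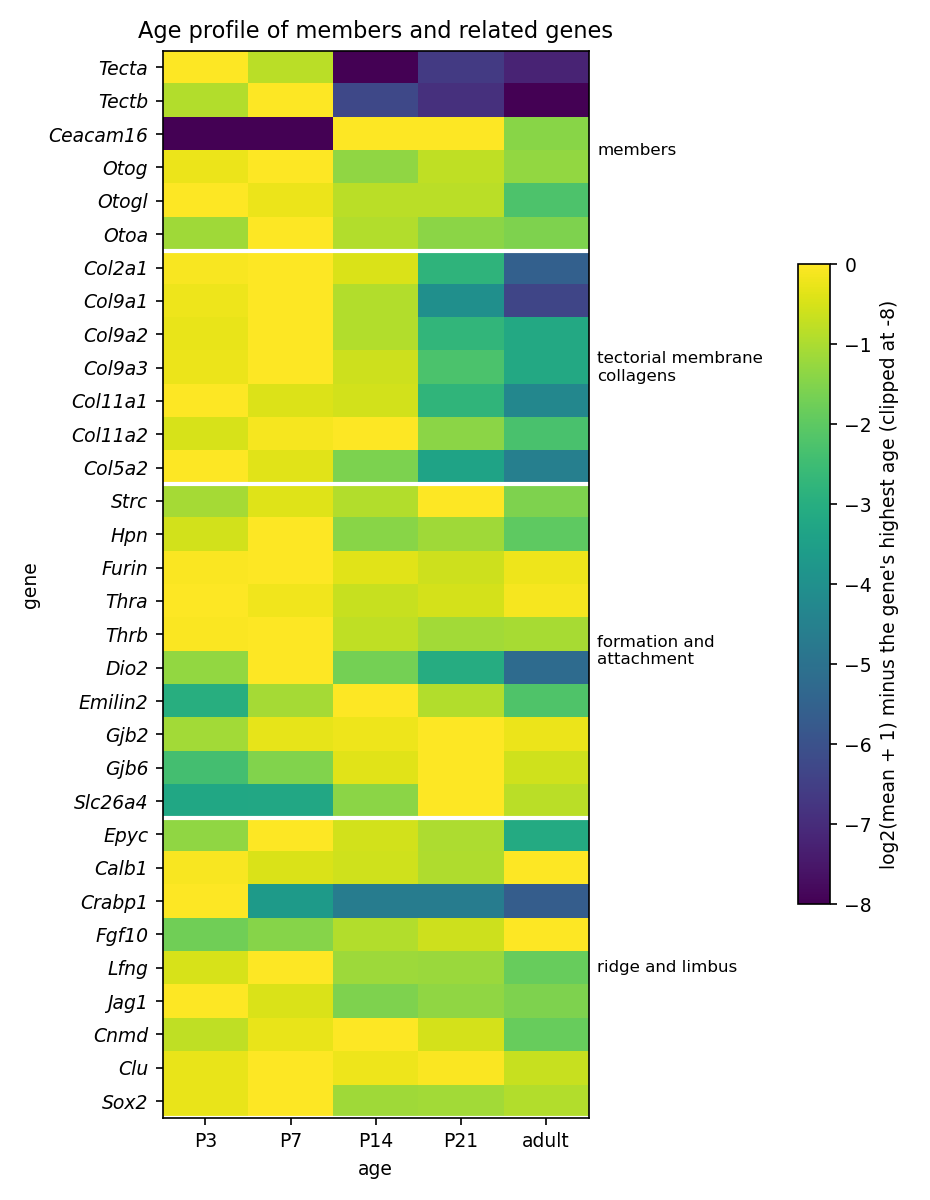
Level of the 6 genes and of 3 related lists at each age, as log2 of the mean plus 1 minus the highest age of the gene (color, clipped at -8). The tectorins darken between P7 and P14, and the collagens mainly between P14 and adult.

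In the genome, 3 of the 6 genes lie on chromosome 7, far apart from each other. Directly beside Tectb, 1.78 kilobases away, Gucy2g, a membrane guanylyl cyclase, was scarce at 4.52 normalized counts at P14 against 29.5 at P7 and fell (-2.45 ± 0.64 SE, adjusted p = 0.00618, limma; -1.42 with a pseudocount of 10), and on the other side Gpam, an enzyme of glycerolipid synthesis, fell by -0.90 ± 0.13 (adjusted p = 6.23e-05). The neighbours of Tecta went otherwise: Tbcel rose by 0.53 ± 0.07 (adjusted p = 4.46e-05) and Sc5d, a sterol desaturase, was not called (0.19 ± 0.11, adjusted p = 0.176). Beside Ceacam16, Bcl3 was not called (-0.33 ± 0.24, adjusted p = 0.294) and Ceacam19 averaged at most 1.71 normalized counts. Beside Otog, at 2.5 kilobases, Ush1c, a hair bundle scaffold gene, was not called (-0.14 ± 0.13, adjusted p = 0.369), and Kcnc1, a potassium channel, rose by 2.95 ± 0.22 (adjusted p = 3.27e-07). Ptprq and Ppp1r12a beside Otogl and Hs3st2 beside Otoa were not called, and Mettl9 beside Otoa fell by -0.56 ± 0.09 (adjusted p = 0.00021). An antisense gene across Tecta, Gm47629, shares 304 of the 7338 exon bases of Tecta and was not analysed here.

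The genes whose log2 levels followed each member most closely over the 15 libraries were taken from 13189 genes with a mean of at least 100, as a description with n = 15 and no test. Tectb was followed by Lrrtm4, a synaptic adhesion gene (Pearson r = 0.994), Tom1l1 (0.993) and Bche, butyrylcholinesterase (0.992). Ceacam16 was followed by Fkbp4, a chaperone partner (0.994), Glul, glutamine synthetase (0.992), and Slc9a3r2 (0.991). Fkbp4 averaged 7991 at P3, 9880 at P7, 20636 at P14, 20597 at P21 and 18507 in adults, so a high r stands here beside a range far narrower than the 5463-fold of Ceacam16. Tecta was followed by Tsr1 (0.979), Wdr34 (0.978) and Lmnb1, lamin B1 (0.977), and Otogl by Il4ra (0.963), Twsg1 (0.951) and Trpv4 (0.942). Otoa was followed by Lima1 (0.954), Txndc16 (0.944) and Stag2 (0.940), and Otog by Xrcc1 (0.910), Rbm24 (0.897) and Myo5c (0.896). Libraries share their age and scaling, and with Spearman's rho 3 of the 18 names were the same.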

How the data were processed

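Total RNA of microdissected auditory nerve, both cochleae of a mouse pooled, was sequenced from TruSeq libraries, per the labels' protocols. Per the submitters' processing notes, Partek, TopHat2 and DESeq2 were used with build mm10, while annotation, counting, strand and filters are not given in the sources used here. The deposited signal is a normalized read count per gene, read as reads over 1 size factor because dividing by 1 step found for each library gave whole reads for 99.94% of values above 0 (tolerance 0.1). The authors' table also holds a p-value and a signed fold change, read here as a score, per pair of postnatal ages, per the file headers. Its p-values are not printed.

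The planned test for normalized values was used: limma 3.58.1 (R 4.3.3, trend, robust) on log2(value + 1), 1 fit of all 15 libraries with 10 residual degrees of freedom, 16723 genes reaching 10 normalized counts in 3 libraries or more, Benjamini-Hochberg adjustment over all of them, two-sided, called under 0.05. "Rose" and "fell" mean called. Alternatives were quantile and TMM scaling, a filter at 50 or none, a pseudocount of 0.1 or 10, only both ages in the fit, edgeR 4.0.16, DESeq2 1.42.0 and limma-voom on recovered reads, each library left out, the 4 libraries low in Eif2s3y left out, and the replicate number as a block. Fitted code was tested on simulated data. The 5 comparisons in the text are those of successive ages and of adult with P3; other pairs are given only for neighbours in a gene's order.

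Members, lists and tests were chosen with earlier results of these data known. Named genes are the 6 members, for each the 3 most correlated genes and the nearest gene on each side, up to 4 genes per list by joint adjusted p, and 19 chosen by name. The text names some of them, and Clu, Fgf20, Ceacam1, Ceacam2, Prox1, Myo6, Col11a1 and the overlapping genes where a statement needed them. Exon lengths come from GENCODE M21 protein-coding transcripts, promoters from RefSeq (GRCm38.p6), with 4 of 6 members matched. Libraries are separate mice, with litter not stated. Reads carry no molecular identifiers, so the floor of 3 reads covers counting error only.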

Additional observations from a re-analysis of the deposited data

How the results depend on the processing

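Of 1016 values of the 6 genes under alternatives, 1000 kept their direction or stayed uncalled, 13 gained a call and 3 lost one. With quantile normalization Tectb at P7 against P3 was 0.70 (adjusted p = 0.0645), Otog in adults against P21 -0.76 and Otoa in adults against P3 -0.75. In fits of both ages alone, Tecta at P7 against P3 was -0.84 (adjusted p = 0.0187) and Otogl at P14 against P7 -0.59 (0.0228). Without the 4 libraries low in Eif2s3y they were -0.84 and -0.66, and Otogl in adults against P21 was -2.25 against -1.53. By limma-voom Tecta at P7 against P3 was -0.83. Leaving out 1 library gave 0.71 to 1.12 for Tectb at P7 against P3, -0.71 to -0.44 for Otogl at P14 against P7, -0.59 to -0.38 for Otoa at P21 against P14, -0.99 to -0.22 for Otog in adults against P21, and -0.62 to -0.18 for Otoa in adults against P3. The cause of these shifts was not tested.

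The count of genes called at P7 against P3 ran from 3080 to 6349 with 1 library left out, and that at P21 against P14 from 631 to 1969. At P21 against P14 it was 1553, but 137 with both ages alone, 754 without the 4 libraries, 645 with the replicate block and 2519 by DESeq2. In adults against P21 it was 8266, but 5211 with both ages alone and 3987 without the 4 libraries. With both ages alone, 4 hair cell genes fell at P14 against P7 and 4 hair cell and 2 supporting cell genes in adults against P21, and 2 collagen genes rose at P7 against P3; with quantile normalization no glial gene rose at P14 against P7. Ocm in adults against P3 changed from 0.12, not called, to -0.60 (adjusted p = 0.0485) without the 4 libraries. Replicate numbers, shared by P3, P14, P21 and adult, did not pair the samples: 5 of 18 same-numbered pairs had deviations correlated above 0.1 (r between -0.23 and 0.32). The replicate block changed no call of the 6 genes in the 3 comparisons it covers. No paired analysis was possible for comparisons with P7, because its numbers are not shared. Depth limited only Ceacam16 at P3, with 9 to 12 reads a library.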
